A study of Mus musculus with 12 samples.

Results

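The voltage-gated sodium and calcium channel genes are the pore-forming and auxiliary subunits of the channels that carry the inward currents of neurons. They were taken by symbol, as every gene named Scn with a number and the letter a or b, or with a symbol starting Cacna, Cacnb or Cacng. This gave 40 genes of 24091 in the table, 14 of sodium channels and 26 of calcium channels. Expression was measured by RNA sequencing of poly(A) RNA from mouse cerebellar tissue in 12 samples, 3 in each of 4 groups. The groups were medulloblastomas of Brca2-mut;Trp53-mut mice GB344, GB359 and GB370, the non-tumor cerebellum beside each tumor in the same mice, and cerebellum of tumor-free adult mice of genotype Brca2-mut;Trp53-WT (GB361, GB508 and GB512) or Brca2-WT;Trp53-mut (GB517, GB519 and GB520). Brca2-mut stands for a conditional loss of exons that encode the PALB2-binding domain, made by Cre under the human GFAP promoter in the developing central nervous system, and Trp53-mut for a knockout in every cell. The labels give the genotype Brca2-mut;Trp53-mut for the adjacent samples too, which covers the engineered alleles and not mutations that arose in the tumors. The tumors arose in whole animals and hold whatever normal cells were cut out with them. Tumor tissue was taken when mice fell ill, and the control cerebella of both genotypes, 6 samples in all, served together as the tumor-free reference.

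Sodium channels have a large alpha subunit that forms the pore and 1 or more small beta subunits with an immunoglobulin fold, and they start and carry the action potential along the axon. Calcium channels have an alpha1 pore with a cytoplasmic beta subunit and an extracellular alpha2delta subunit, and they turn depolarization into calcium entry, which at the synapse triggers release. Most genes named Cacng encode TARPs, which escort AMPA-type glutamate receptors rather than calcium channels. The cerebellum is rich in these genes because of its granule neurons, which are small and very many, and its Purkinje cells, which fire without input. Sonic hedgehog medulloblastoma arises from granule cell progenitors, dividing cells that do not yet fire or form synapses.

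Values were in TPM, in which all genes of a sample share a fixed total and which scale each gene by transcript length and by the library total, so levels can be set side by side between genes. Positions are those of RefSeq on GRCm38.p6, the assembly also called mm10. Reads per library were unknown, and 15088 to 15803 genes reached 1 TPM in a sample. The targeted genes gave no check on the labels, because the TPM of a gene add up all of its transcripts, including parts outside the deleted exons. Trp53 was at 124 to 130.5 TPM in the tumors, 47.1 to 49.4 TPM in the cerebella labelled Brca2-WT;Trp53-mut and 33.1 to 37.2 TPM in those labelled Brca2-mut;Trp53-WT. Brca2 was at 8.22 to 14.6 TPM in the tumors and 3.24 to 4.40 TPM in the controls. The adjacent samples were labelled normal, yet Atoh1, the transcription factor of granule cell progenitors, was at 4.997 to 59.4 TPM in them and at most 0.212 TPM in the controls. The tumor of GB344 had the lowest level of the 3 tumors for 27 of the 31 channel genes that could be tested. The same was not counted over all genes, so it may not be particular to these genes.

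Most channel genes were lower in the tumors than in tumor-free cerebellum. Against the 6 controls, 19 of the 31 tested genes fell and 2 rose, Scn3b and Cacna2d1, where a call required an adjusted p under 0.01 in limma and a change of 1 or more, up or down, on the log2(TPM + 1) scale. Over all genes tested in this comparison, 21.5% were called lower and 14.4% higher. The median log2 fold change of the 31 was -1.36, beside -0.11 over all genes tested, and their quartiles were -3.70 and -0.59. In 22 of the 31 every tumor lay below every control, and in 2 every tumor lay above, where 35.7% and 28.3% of all genes tested did so. The other 9 of the 40 did not reach 1 TPM in at least 3 samples of the comparison and were not tested, so these counts do not cover them. In bulk tissue fewer cells of a type and less RNA per cell cannot be told apart. Markers of the mature cerebellar cell types fell with the channels. All 6 listed granule neuron markers fell, and their summed level was 2345 to 3052 TPM in the controls and 108 to 374 TPM in the tumors. All 6 Purkinje cell markers fell, with sums of 6004 to 9392 TPM and 229.9 to 373 TPM, as did all 6 of molecular layer interneurons, with sums of 943 to 1203 TPM and 56.2 to 120.5 TPM. The 6 markers of granule cell progenitors and cell division rose, with a sum of 33.2 to 58.0 TPM in the controls and 990.1 to 1956 TPM in the tumors, and 3 of 4 oligodendrocyte precursor markers rose, with sums of 103 to 214 TPM and 207 to 427 TPM. Oligodendrocyte markers fell in 6 of 6 and astrocyte and Bergmann glia markers in 5 of 6, microglial markers rose in 2 of 6, and 1 of 7 endothelial and mural markers and 1 of 5 choroid plexus markers fell. None of the listed markers was at 0 in all samples, and the part of any cell type in the channel results was not tested. Without the tumor of GB344, 3 channel genes were called higher and 17 lower.

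**Figure D1:**
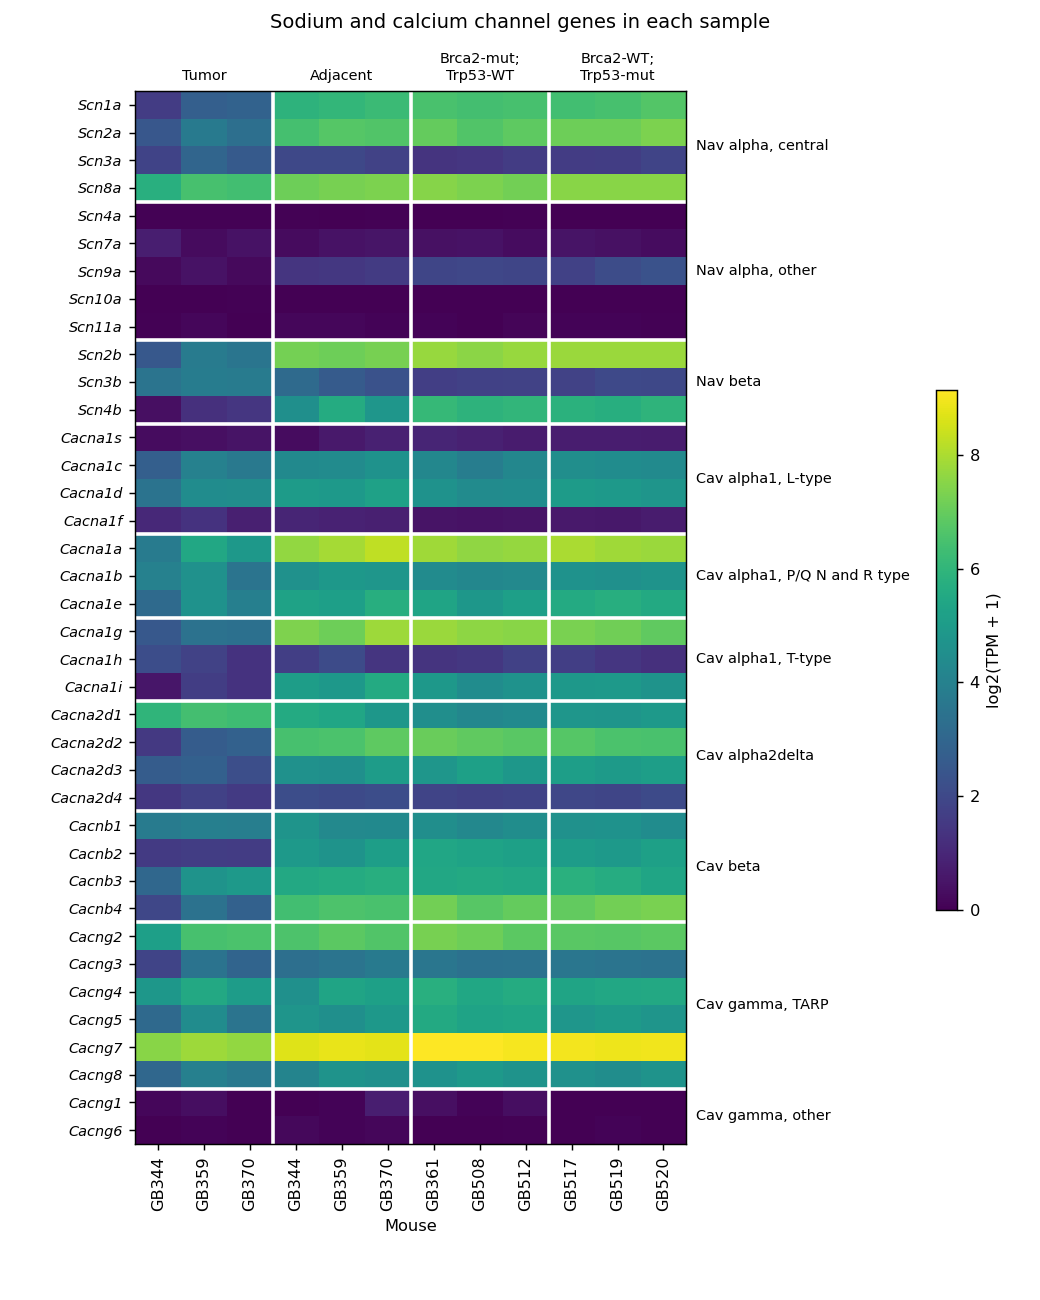
Expression of 38 of the 40 genes (rows, ordered by subunit class) in each of the 12 samples (columns, by mouse), as log2(TPM + 1) on the color scale. Cacng7 is the brightest row in all groups, and most rows are darker in the 3 tumors, while Scn3b and Cacna2d1 are brighter there.

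Among the sodium channel pores, 4 of the 5 tested genes fell in the tumors and none rose. Scn8a encodes the main sodium channel of nodes of Ranvier and mature axon initial segments, and it was the most abundant of them in every group (Entrez gene 20273, chr15:100869863-101045938). Its level was 53.3, 88.6 and 81.1 TPM in the tumors of GB344, GB359 and GB370, in the order of mice kept throughout, 139.6, 153 and 159 TPM in the adjacent samples, and 145 to 184 TPM (median 180.3) in the controls. All tumors lay below all other samples, but the fall was the smallest of the pores that fell (log2 fold change -1.23 ± 0.15 (SE), limma adjusted p = 3.11e-05). Scn2a, found in unmyelinated axons and in initial segments early in development (Entrez gene 110876, chr2:65620764-65767447), stood at 4.64, 12.1 and 9.22 TPM in the tumors, 87.2, 105 and 99.5 TPM in the adjacent cerebella and 101 to 159.9 TPM (median 132) in the controls. The highest tumor, GB359, was still far under the lowest control (log2 fold change -3.83 ± 0.24 (SE), limma adjusted p = 1.99e-07). Scn1a, the pore mutated in Dravet epilepsy and much used by inhibitory neurons (Entrez gene 20265, chr2:66270781-66440837), was at 2.08, 5.76 and 6.35 TPM in the tumors, 58.5, 65.8 and 74.7 TPM beside them and 82.1 to 101 TPM (median 87.4) in the controls. It showed the largest fall of the sodium channel pores, with no overlap between the groups (log2 fold change -4.07 ± 0.23 (SE), limma adjusted p = 1.24e-07). Scn9a, best known from pain-sensing neurons, was low throughout, with 0.183, 0.366 and 0.169 TPM in the tumors against 2.37 to 3.93 TPM (median 2.82) in the controls (log2 fold change -1.69 ± 0.15 (SE), limma adjusted p = 2.39e-06).

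Scn3a, the pore that prevails in the embryonic brain (Entrez gene 20269, chr2:65457118-65567591), was not called. It was at 2.54, 6.87 and 5.01 TPM in the tumors, 2.92, 2.95 and 2.46 TPM in the adjacent cerebella and 1.57 to 2.70 TPM (median 2.09) in the controls. The tumors of GB359 and GB370 lay above every control and that of GB344 lay among them (log2 fold change 0.87 ± 0.23 (SE), limma adjusted p = 0.00638). Without the tumor of GB344 the gene passed both thresholds (log2 fold change 1.19, limma adjusted p = 0.000220).

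The beta subunits of sodium channels are small proteins that modulate gating and take part in cell adhesion, and of the 4 genes tested 3 fell and 1 rose in the tumors. Scn2b, whose protein is joined to the pore by a disulfide bond (Entrez gene 72821, chr9:45117876-45130070), was at 4.75, 13.1 and 10.7 TPM in the tumors, 150.2, 137 and 151 TPM beside them and 186 to 219 TPM (median 214) in the controls. Tumor, adjacent and control levels formed separate ranges (log2 fold change -4.42 ± 0.23 (SE), limma adjusted p = 6.22e-08). Scn4b, which supplies the blocking segment behind resurgent current in Purkinje cells (Entrez gene 399548, chr9:45138624-45154155), was at 0.310, 1.41 and 1.72 TPM in the tumors, 22.4, 47.9 and 27.2 TPM in the adjacent cerebella and 51.7 to 68.6 TPM (median 60.3) in the controls. It had the largest fall of the 31 tested genes, and the adjacent cerebella were widely spread (log2 fold change -4.90 ± 0.21 (SE), limma adjusted p = 2.47e-08).

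Scn3b, a beta subunit expressed early in brain development (Entrez gene 235281, chr9:40269216-40291618), rose. It was at 10.6, 13.4 and 12.9 TPM in the tumors, 7.86, 5.16 and 3.94 TPM in the adjacent cerebella and 2.24 to 3.02 TPM (median 2.49) in the controls. Each tumor was above each adjacent sample and each adjacent sample above each control (log2 fold change 1.88 ± 0.13 (SE), limma adjusted p = 3.53e-07). In the TPM themselves the tumor mean was 4.73 times the control mean. The gain was small in absolute level, with 12.3 ± 1.51 TPM (SD, n = 3) in the tumors against 210.2 ± 12.2 TPM (SD, n = 6) for Scn2b in the controls.

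Scn2b and Scn4b are neighbors on chromosome 9, with 8554 bases between the end of the first and the start of the second, and both fell, to 0.0452 and 0.0190 times the control mean in TPM. The 250 bases before their starts in RefSeq (GRCm38.p6, plus strand) are shown because neighboring genes of 1 class both fell, with CG dinucleotides in capitals. The window of Scn2b lies at chr9:45117626-45117875 and that of Scn4b at chr9:45138374-45138623.
Scn2b: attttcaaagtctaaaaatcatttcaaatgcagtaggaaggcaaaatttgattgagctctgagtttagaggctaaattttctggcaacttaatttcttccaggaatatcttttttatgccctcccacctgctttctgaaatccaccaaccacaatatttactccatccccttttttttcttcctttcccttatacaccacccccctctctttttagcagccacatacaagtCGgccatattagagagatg
Scn4b: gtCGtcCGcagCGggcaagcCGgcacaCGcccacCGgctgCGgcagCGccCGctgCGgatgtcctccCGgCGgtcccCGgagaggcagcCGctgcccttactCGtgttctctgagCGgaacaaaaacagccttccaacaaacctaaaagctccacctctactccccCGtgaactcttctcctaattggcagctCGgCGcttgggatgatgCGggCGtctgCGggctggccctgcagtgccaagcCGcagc
The window of Scn2b held 1 CG and 38.4% G or C, and that of Scn4b held 23 and 66.0%. Over 32851 RefSeq windows of the same length the median was 6 CG and 52.4% G or C.

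**Figure D2:**
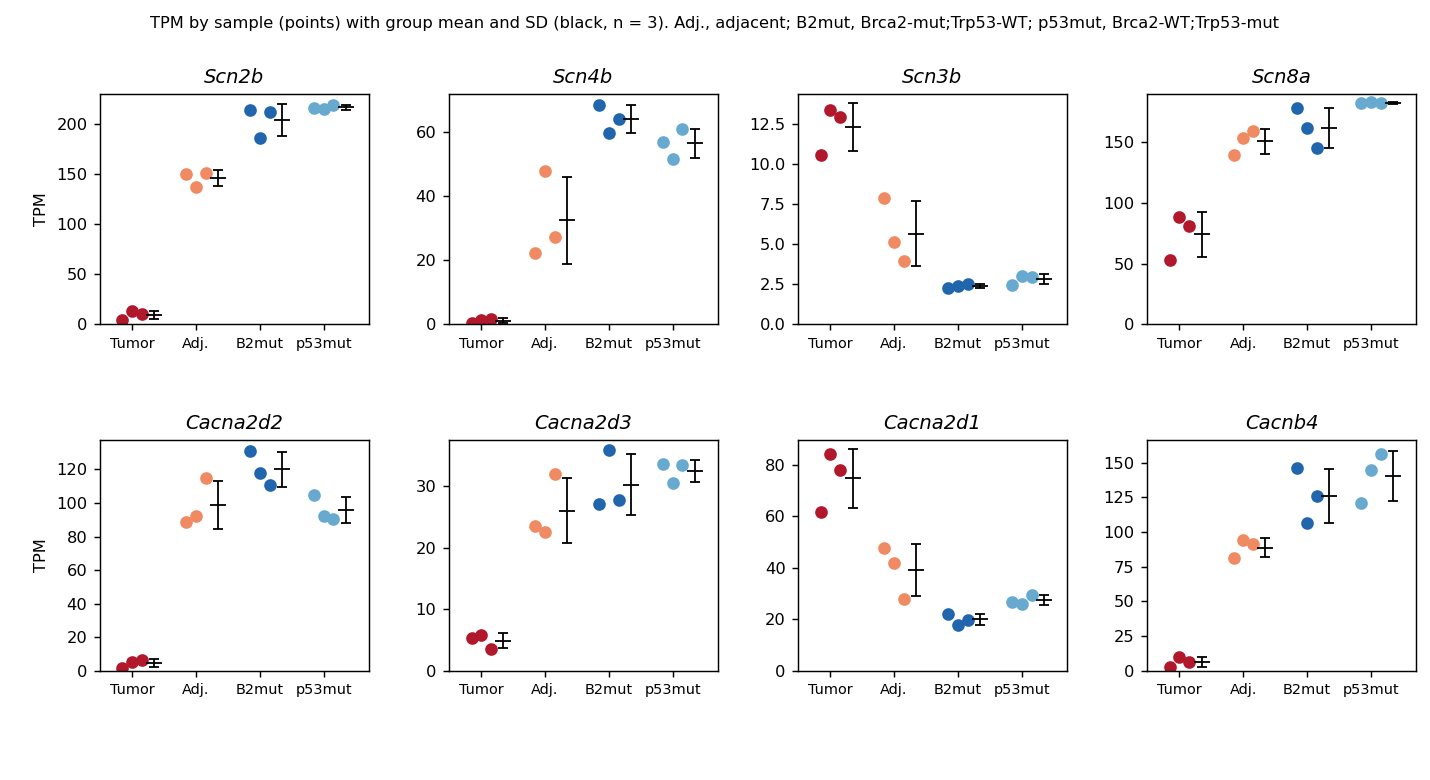
TPM of 8 channel genes in each sample (colored points, left to right by mouse number within a group), with the group mean and SD in black (n = 3); each vertical axis starts at 0 and has its own scale. Scn2b, Scn4b, Scn8a, Cacna2d2, Cacna2d3 and Cacnb4 are lowest in the tumors, and Scn3b and Cacna2d1 are highest there with the adjacent cerebella between tumor and control means.

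The pore-forming alpha1 subunits of calcium channels fell in 4 of 8 tested genes and rose in none. Cacna1a, the P/Q-type pore of presynaptic terminals and of Purkinje cells, mutated in inherited ataxias (Entrez gene 12286, chr8:84338631-84640251), was the most abundant. Its level was 13.0, 43.7 and 28.3 TPM in the tumors, 203, 242 and 310.4 TPM in the adjacent cerebella and 196 to 254 TPM (median 222) in the controls. The adjacent cerebella overlapped the controls, and the tumors lay far below both (log2 fold change -3.07 ± 0.28 (SE), limma adjusted p = 3.51e-06). Cacna1g, a low-voltage-activated T-type pore of Purkinje and deep nuclear neurons (Entrez gene 12291, chr11:94408391-94474400), was at 4.74, 9.92 and 9.38 TPM in the tumors, 164, 138 and 222 TPM beside them and 119.9 to 215 TPM (median 170.3) in the controls. It fell the most of the alpha1 genes (log2 fold change -4.26 ± 0.23 (SE), limma adjusted p = 8.83e-08). Cacna1i, another T-type pore of neurons (Entrez gene 239556, chr15:80287238-80398292), was at 0.474, 2.15 and 1.55 TPM in the tumors, 32.8, 28.7 and 47.2 TPM in the adjacent cerebella and 20.6 to 29.8 TPM (median 26.6) in the controls. It was close to 0 in the tumor of GB344 (log2 fold change -3.56 ± 0.22 (SE), limma adjusted p = 1.99e-07). Cacna1e, the R-type pore (Entrez gene 12290, chr1:154390806-154884785), was at 7.93, 24.1 and 14.2 TPM in the tumors and 27.9 to 51.8 TPM (median 43.0) in the controls, with the tumor of GB359 just under the lowest control (log2 fold change -1.46 ± 0.29 (SE), limma adjusted p = 0.00116). Against the Brca2-mut;Trp53-WT cerebella alone it was not called (log2 fold change -1.20, limma adjusted p = 0.0216).

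The other 4 alpha1 genes tested kept levels in the tumors that overlapped those of the controls. Cacna1c, an L-type pore shared with heart and smooth muscle, was at 5.79, 15.1 and 11.98 TPM in the tumors and 13.6 to 21.9 TPM (median 18.8) in the controls (log2 fold change -0.78 ± 0.25 (SE), limma adjusted p = 0.0154), and without the tumor of GB359 it was called lower (-1.04, limma adjusted p = 0.00403). Cacna1d, the other neuronal L-type pore, was at 10.2, 20.9 and 21.6 TPM and 20.2 to 31.1 TPM (median 25.4) (log2 fold change -0.56 ± 0.23 (SE), limma adjusted p = 0.0493). For Cacna1b, the N-type pore of synaptic terminals, the values were 15.3, 23.6 and 10.5 TPM in the tumors and 17.8 to 24.7 TPM (median 21.7) in the controls (log2 fold change -0.43 ± 0.21 (SE), limma adjusted p = 0.0926). In each of these 3 the lowest sample of all was a tumor, GB344 for the L-type pores and GB370 for Cacna1b. Every tumor also lay below every adjacent sample in Cacna1c, Cacna1d and Cacna1b. None of them was called in that comparison (log2 fold changes -0.97, -0.91 and -0.71). Cacna1h, the third T-type pore, stayed low at 3.45, 2.52 and 1.51 TPM in the tumors and 1.38 to 2.41 TPM (median 1.73) in the controls (log2 fold change 0.27 ± 0.19 (SE), limma adjusted p = 0.236). By type, the P/Q-type, the R-type and 2 of 3 T-type pores were called lower against the controls. The N-type pore and the tested L-type pores were not, and no test compared the types with each other.

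The alpha2delta subunits moved in opposite directions. Cacna2d2, the form of Purkinje cells whose loss causes the ataxia of ducky mice (Entrez gene 56808, chr9:107399733-107529346), was at 1.89, 5.35 and 6.21 TPM in the tumors, 88.8, 92.1 and 115 TPM in the adjacent cerebella and 90.5 to 131 TPM (median 108) in the controls. The adjacent and control ranges overlapped and the tumors lay far below both (log2 fold change -4.41 ± 0.26 (SE), limma adjusted p = 1.31e-07). Cacna2d3 (Entrez gene 12294, chr14:28904943-29722775) was at 5.25, 5.90 and 3.59 TPM, 23.5, 22.5 and 32.1 TPM and 27.1 to 35.9 TPM (median 32.0) in the same order. It also fell, by less (log2 fold change -2.47 ± 0.15 (SE), limma adjusted p = 1.49e-07). Cacna2d1, a widely expressed form (Entrez gene 12293, chr5:15934264-16374511), was at 61.8, 84.2 and 78.1 TPM in the tumors, 47.6, 41.8 and 27.8 TPM in the adjacent cerebella and 17.8 to 29.5 TPM (median 24.0) in the controls. Every tumor lay above every other sample, and the adjacent cerebella of GB344 and GB359 lay above every control while that of GB370 lay within their range (log2 fold change 1.63 ± 0.16 (SE), limma adjusted p = 7.52e-06). Cacna2d4, known from the retina, was low at 1.77, 2.37 and 1.96 TPM in the tumors and 2.38 to 3.17 TPM (median 2.74) in the controls and was not called (log2 fold change -0.31 ± 0.12 (SE), limma adjusted p = 0.0434).

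Cacna2d1 made up 86.8 ± 0.670% (SD, n = 3) of the summed alpha2delta TPM in the tumors, against 14.4 ± 3.35% (SD, n = 6) in the controls. The share of Cacna2d2 went from 64.9 ± 5.33% in the controls to 5.02 ± 2.16% in the tumors. With this gain, alpha2delta was the class with the smallest loss in sum, to 52.0% of the control mean. The 250 bases before a RefSeq start of each gene (GRCm38.p6, plus strand) are shown because the genes belong to 1 class and moved apart, at chr5:15934441-15934690 for Cacna2d1 and chr9:107399630-107399879 for Cacna2d2, with CG dinucleotides in capitals.
Cacna2d1: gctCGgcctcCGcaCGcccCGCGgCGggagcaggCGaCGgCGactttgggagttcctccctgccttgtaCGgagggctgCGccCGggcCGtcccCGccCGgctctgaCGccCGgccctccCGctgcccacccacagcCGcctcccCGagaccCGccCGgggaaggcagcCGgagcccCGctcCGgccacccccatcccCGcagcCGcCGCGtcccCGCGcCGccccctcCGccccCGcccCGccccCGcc
Cacna2d2: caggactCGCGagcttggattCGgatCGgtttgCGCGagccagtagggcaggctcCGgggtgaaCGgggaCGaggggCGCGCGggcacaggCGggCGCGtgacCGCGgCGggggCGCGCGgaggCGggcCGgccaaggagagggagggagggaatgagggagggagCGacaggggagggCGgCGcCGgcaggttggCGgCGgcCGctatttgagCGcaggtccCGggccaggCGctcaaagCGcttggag
Both windows were rich in CG, with 36 and 82.4% G or C for Cacna2d1 and 34 and 74.4% for Cacna2d2. The window of Cacna2d1 lies inside the gene span given above, and that of Cacna2d2 runs across the start of its span. Neither window therefore lies wholly before its gene.

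Of the 4 cytoplasmic beta subunits, which bring the pore to the membrane, 3 fell. Cacnb4, whose loss causes ataxia and seizures in lethargic mice (Entrez gene 12298, chr2:52428320-52676609), was at 2.89, 9.95 and 6.20 TPM in the tumors, 81.1, 94.2 and 91.2 TPM in the adjacent cerebella and 107 to 156 TPM (median 135) in the controls. The 3 groups formed separate ranges (log2 fold change -4.31 ± 0.27 (SE), limma adjusted p = 1.97e-07). Its exons share 1170 of 8709 bases with an annotated gene on the opposite strand, A430018G15Rik, and the library kit named in the labels does not mark strand, so reads of the overlap cannot be told apart. In all, 10 of the 40 genes share exon bases with another annotated gene. Cacnb2 (Entrez gene 12296, chr2:14603861-14988811) was at 1.90, 2.17 and 2.08 TPM in the tumors, 29.1, 25.2 and 33.8 TPM beside them and 29.3 to 41.4 TPM (median 35.9) in the controls. The tumors were close to each other, and the gene had the lowest adjusted p of the 31 (log2 fold change -3.58 ± 0.12 (SE), limma adjusted p = 9.97e-09). Cacnb3 (Entrez gene 12297, chr15:98628436-98644536) was at 7.36, 24.7 and 29.2 TPM in the tumors, 44.8, 48.8 and 51.9 TPM beside them and 40.8 to 54.6 TPM (median 44.9) in the controls. The tumor of GB344 was far below the other tumors (log2 fold change -1.34 ± 0.33 (SE), limma adjusted p = 0.00434), and without it the fold change was -0.76 and under the minimum. Cacnb3 was also not called against either control genotype alone (limma adjusted p = 0.0345 against Brca2-WT;Trp53-mut and 0.0400 against Brca2-mut;Trp53-WT). Cacnb1, the form of skeletal muscle that brain also expresses, was at 12.8, 14.4 and 13.9 TPM in the tumors and 18.3 to 24.3 TPM (median 21.4) in the controls. It was below every control in every tumor, but by less than the minimum fold change (log2 fold change -0.62 ± 0.10 (SE), limma adjusted p = 0.000349).

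All 6 TARP genes were expressed, and 3 fell. Cacng7 (Entrez gene 81904, chr7:3332027-3368221) was the most abundant gene of the 40 in the tumors. It was at 181, 221 and 201 TPM in the tumors, 413, 461 and 438 TPM in the adjacent cerebella and 479.7 to 564 TPM (median 511.9) in the controls. The groups formed 3 separate ranges and each was narrow (log2 fold change -1.36 ± 0.08 (SE), limma adjusted p = 2.09e-07). Cacng5, a close relative of Cacng7 (Entrez gene 140723, chr11:107874604-107915055), was at 7.63, 20.9 and 10.5 TPM in the tumors, 26.5, 22.4 and 28.2 TPM beside them and 26.2 to 45.6 TPM (median 34.7) in the controls. Every tumor lay below every other sample (log2 fold change -1.44 ± 0.28 (SE), limma adjusted p = 0.000899), but against the Brca2-WT;Trp53-mut cerebella alone the gene was not called (limma adjusted p = 0.0176). Cacng8 (Entrez gene 81905, chr7:3394042-3416266) was at 7.30, 14.8 and 11.9 TPM in the tumors and 21.5 to 29.2 TPM (median 24.7) in the controls (log2 fold change -1.11 ± 0.18 (SE), limma adjusted p = 0.000259). Without the tumor of GB344 its fold change was -0.85, under the minimum, as it was with quantile scaling (-0.94). Cacng2, stargazin, whose loss makes the stargazer mouse ataxic, was at 34.9, 88.7 and 92.7 TPM in the tumors, 94.8, 113 and 99.1 TPM beside them and 107 to 151 TPM (median 112) in the controls. The tumors of GB359 and GB370 were near the adjacent cerebella and that of GB344 was far lower, and the gene was not called (log2 fold change -0.86 ± 0.27 (SE), limma adjusted p = 0.0157) except without the tumor of GB370 (limma adjusted p = 0.00756). Cacng3 and Cacng4, at 2.70, 10.2 and 6.73 TPM and 27.4, 44.5 and 31.9 TPM in the tumors, overlapped the controls and were not called either, although Cacng3 was called lower without the tumor of GB359 (limma adjusted p = 0.00261).

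**Figure D3:**
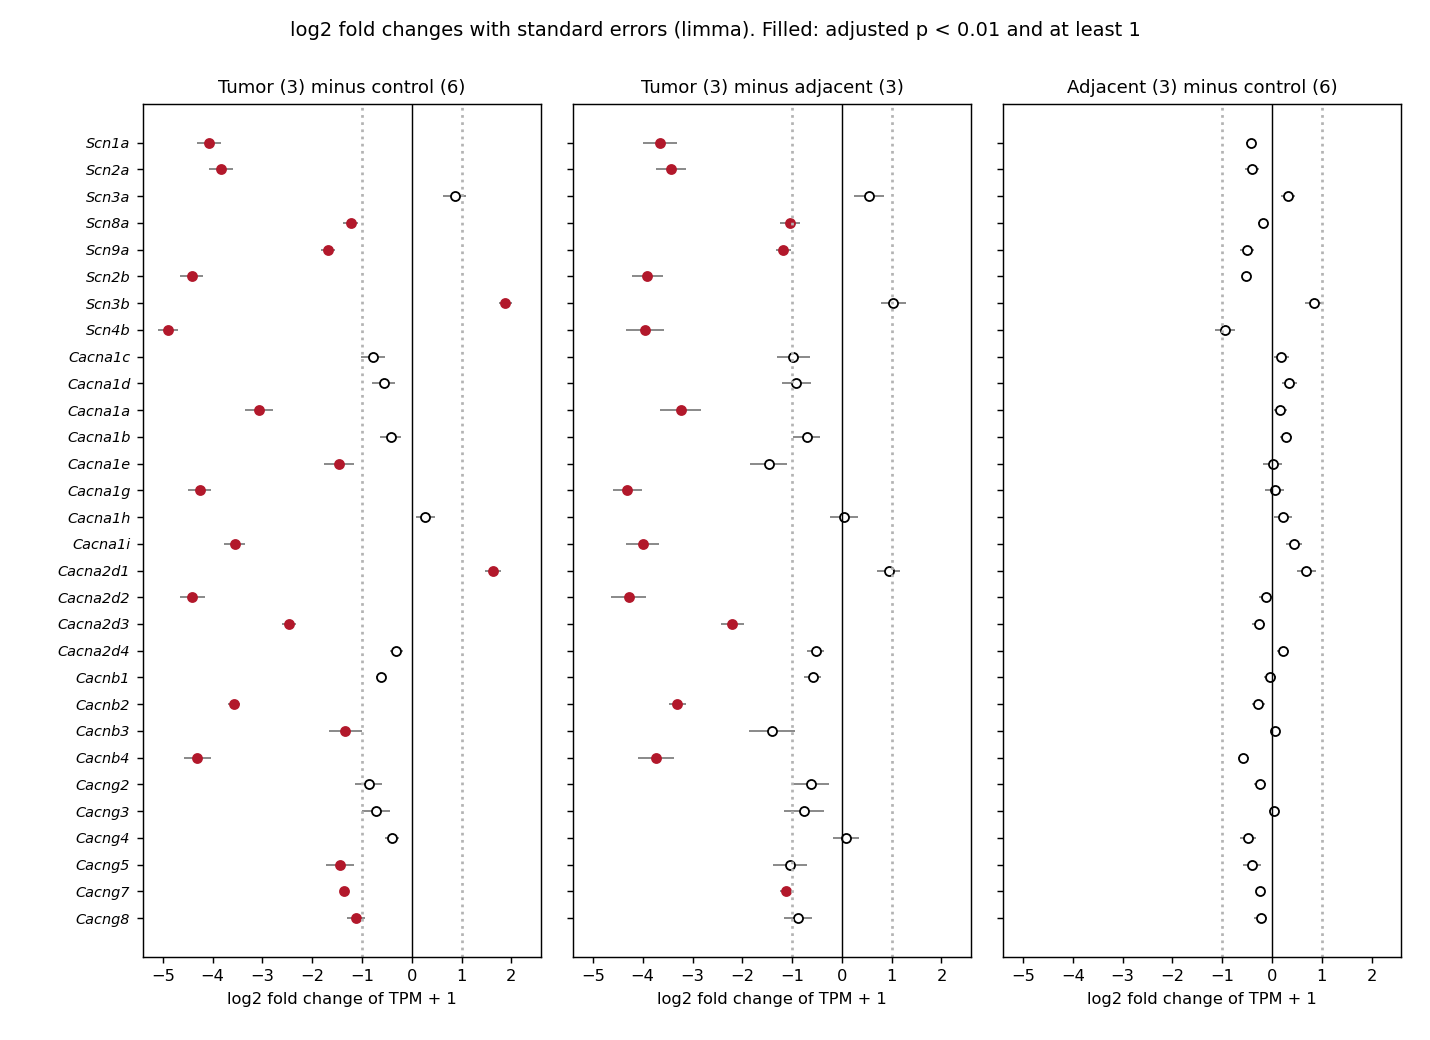
Log2 fold change of log2(TPM + 1) for 30 of the 31 tested genes in 3 comparisons, with SE as horizontal bars; filled points passed the adjusted p of 0.01 and the absolute fold change of 1, marked by dotted lines. In tumor minus control, 18 filled points lie to the left and 2, Scn3b and Cacna2d1, to the right; no point is filled in adjacent minus control.

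The 9 genes under the test filter are mostly known from muscle, retina, sensory neurons and glia. Cacng1, Cacng6 and Cacna1s, all of skeletal muscle, stayed under 1 TPM in every sample, as did Scn4a of skeletal muscle and Scn10a and Scn11a of sensory neurons. Within that low range Cacna1s was at 0.247, 0.288 and 0.398 TPM in the tumors and 0.606 to 0.949 TPM in the controls, with every tumor below every control. Of the 6 listed skeletal muscle markers 4 were tested and 1 was lower in the tumors, Ryr1, which encodes a calcium release channel and stood at 1.21 ± 0.206 TPM (SD, n = 3) against 19.5 ± 2.07 TPM (SD, n = 6), and the median log2 fold change of the 4 was -0.02. Scn7a, a sodium sensor of glia, was also under 1 TPM in every sample. Cacna1f, the L-type pore of the retina, was at 1.05, 1.52 and 0.738 TPM in the tumors and 0.361 to 0.607 TPM (median 0.455) in the controls, with every tumor above every control. The adjacent cerebella, at 0.917, 0.817 and 0.764 TPM, were also above every control and overlapped the tumors.

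Losses differed by subunit class, and the make-up of several classes changed. In sum over a class, the beta subunits of calcium channels kept 17.9% of the control mean in the tumors, the alpha1 pores 19.4%, the sodium channel pores 24.0%, the Cacng genes 44.9% and the alpha2delta subunits 52.0%. These sums are descriptions, since a few abundant genes set each of them, and that of the sodium channel beta subunits is not given here. Scn8a made up 78.3 ± 1.16% of the sodium channel pores in the tumors and 43.5 ± 2.14% in the controls. Among calcium channel beta subunits Cacnb4 had the highest mean share in the controls, with 56.1 ± 4.01%. In the tumors Cacnb3 had it, with 44.8 ± 14.0%. The tumor of GB344 differed, with Cacnb1 above Cacnb3, at 12.8 and 7.36 TPM. Cacna1g dropped from 31.9 ± 6.09% of the alpha1 pores in the controls to 7.96 ± 1.27% in the tumors, while Cacna1d went from 4.85 ± 0.772% to 17.5 ± 3.63%. Cacng7 remained the leading Cacng gene, at 60.4 ± 7.80% and 68.6 ± 1.34%.

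**Figure D4:**
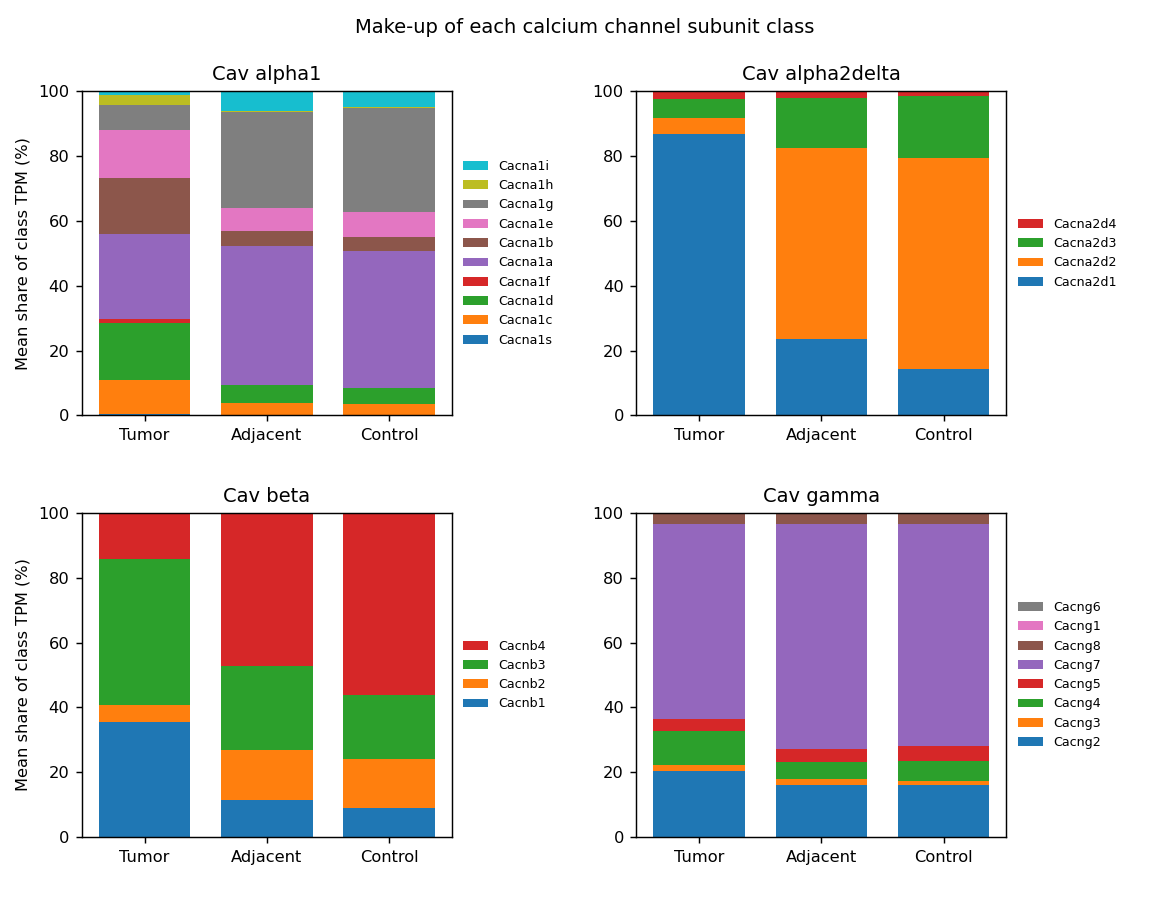
Mean share of each gene in the summed TPM of its subunit class (%), for 4 classes of calcium channel subunit, in tumors (n = 3), adjacent cerebella (n = 3) and controls (n = 6); each stacked bar sums to 100 and shows shares, not amounts. Cacna2d1 fills 86.8% of the alpha2delta bar in tumors and 14.4% in controls.

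Set against the adjacent cerebellum of the same mice, 15 of the 31 tested genes were lower in the tumors and none was higher, where 18.0% and 4.76% of all genes tested had calls in those directions. At an unadjusted p under 0.05 in limma the counts were 24 lower and 2 higher, together 26 of 31, where 57.1% of all genes tested were under it. The median log2 fold change of the 31 was -1.12, beside -0.14 over all genes tested. In 25 of the 31 every tumor lay below every adjacent sample and in 2 every tumor lay above, where 38.9% and 23.7% of all genes tested did so. This comparison uses the same tumors as the one with the controls, so the values of both are given side by side. Among the genes that fell were Cacna1g (log2 fold change -4.31 ± 0.29 (SE), limma adjusted p = 0.000200) and Cacna2d2 (log2 fold change -4.28 ± 0.35 (SE), limma adjusted p = 0.000261). The fold change of Scn4b was -3.96 here and -4.90 against the controls. Those of Scn2a were -3.43 and -3.83, and those of Cacna1a -3.24 and -3.07. Scn3b and Cacna2d1 lay above the adjacent cerebellum in every tumor but missed the adjusted p, and Cacna2d1 also missed the minimum fold change (log2 fold change 1.03 ± 0.25 (SE), limma adjusted p = 0.0138, and log2 fold change 0.94 ± 0.22 (SE), limma adjusted p = 0.0131). Both were called when TPM were rescaled by median-of-ratios or by quantiles, which gave 2 higher and 13 lower, and 2 higher and 12 lower, in place of 0 and 15. Scn8a (log2 fold change -1.04 ± 0.20 (SE), limma adjusted p = 0.00567) was near the threshold and lost the call under 7 of 14 alternatives, which include leaving out the tumor of GB344 or GB370 or any of the adjacent samples (log2 fold changes -1.12 to -0.82). Without the tumor of GB359, Cacna1e and Cacng5 were also called lower (log2 fold changes -1.84 and -1.42), and without the adjacent cerebellum of GB344, Scn3b was called higher (1.26). With the mouse as a block, 15 were lower and 0 higher, as without it.

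Adjacent and control cerebellum differed less in these genes, by at most 0.94 on the log2 scale. None of the 31 was called by limma with or without the trend, where 0.224% and 0.0124% of all genes tested had such calls up and down, and 15 had an unadjusted p under 0.05, 5 of them higher and 10 lower, where 34.5% of all genes tested were under it. Their median difference was -0.13 on the log2 scale, beside 0.07 over all genes tested. Every adjacent sample lay below every control in 7 genes, among them Scn4b, Cacnb4, Scn2b, Scn9a, Scn1a and Cacng7, and above in 1, Scn3b, where 7.64% and 11.7% of all genes tested did so. Scn2b had the lowest adjusted p and passed that threshold but not the fold change (log2 fold change -0.52 ± 0.07 (SE), limma adjusted p = 0.00883). The largest differences were those of Scn4b (log2 fold change -0.94 ± 0.19 (SE), limma adjusted p = 0.0181) and Scn3b (log2 fold change 0.85 ± 0.18 (SE), limma adjusted p = 0.0188). Leaving out 1 adjacent sample was enough to call either gene. Without the adjacent cerebellum of GB359, Scn4b was called lower (log2 fold change -1.25, limma adjusted p = 0.00471), and without that of GB370, Scn3b was called higher (log2 fold change 1.04, limma adjusted p = 0.00294). Cacna1a, Cacna1g, Cacna1i, Cacna1e and Cacnb3 had adjacent means at or above the control mean, and for the other 16 of the 21 genes called in tumor against control the adjacent mean lay between those of tumors and controls.

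The progenitor markers differed among the adjacent samples, in the same order of mice as the genes that rose in tumors. Their summed level was 585 TPM in the adjacent cerebellum of GB344, 460.4 TPM in that of GB359 and 77.7 TPM in that of GB370, against 33.2 to 58.0 TPM in the controls. Scn3b followed the same order of mice, at 7.86, 5.16 and 3.94 TPM, and so did Cacna2d1, at 47.6, 41.8 and 27.8 TPM. Genes that fell in the tumors differed in this. Scn1a, at 58.5, 65.8 and 74.7 TPM, ran in the reverse order, as did Scn8a, Cacna1a and Cacna2d2, among others. Scn4b followed neither order, at 22.4, 47.9 and 27.2 TPM with the highest value in GB359. The same held for Scn2a and Cacng7, among others. Tumor tissue in the adjacent samples was not tested as a source of these levels.

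**Figure D5:**
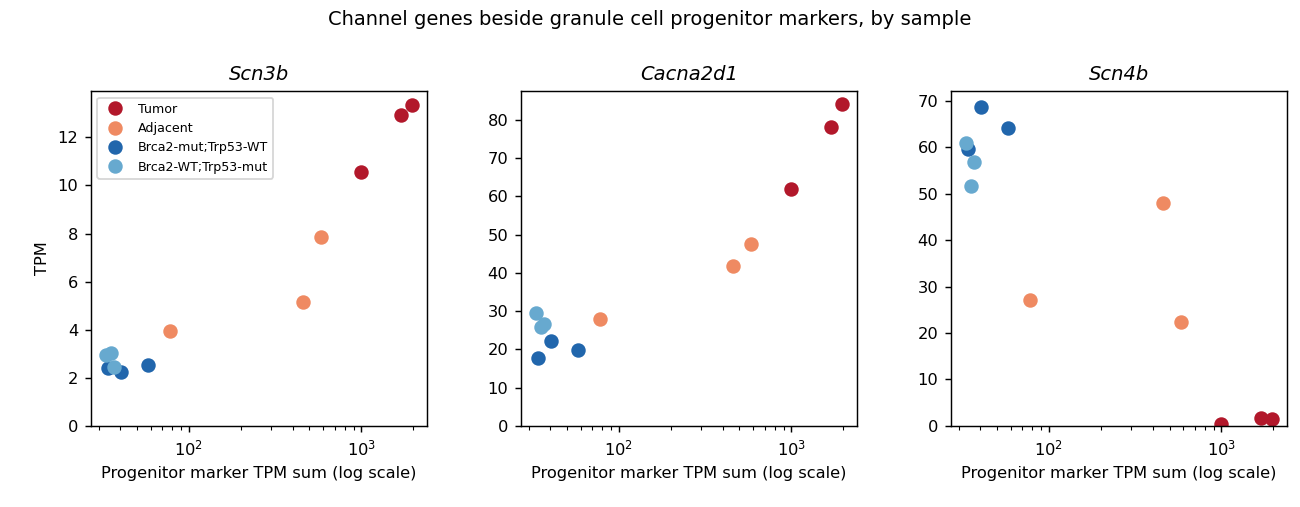
TPM of Scn3b, Cacna2d1 and Scn4b (vertical axes, from 0) against the summed TPM of 6 markers of granule cell progenitors and cell division (horizontal log axes), 1 point per sample. All 3 adjacent cerebella lie to the right of all controls. Scn3b is higher in each of them than in any control, and Cacna2d1 in those of GB344 and GB359 only. The points share library and scaling, and no correlation was tested.

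Between the control genotypes no channel gene was called by limma, with the trend or without it. Over all genes tested, 0.0578% were called, 0.0128% higher and 0.0449% lower in the cerebella labelled Brca2-mut;Trp53-WT. An unadjusted p under 0.05 was found for 12 of the 31, 6 higher and 6 lower, and for 20.1% of all genes tested. The lowest adjusted p was that of Cacng5, at 45.6, 38.6 and 40.6 TPM in Brca2-mut;Trp53-WT and 27.1, 30.7 and 26.2 TPM in Brca2-WT;Trp53-mut. These ranges did not overlap (log2 fold change 0.55 ± 0.09 (SE), limma adjusted p = 0.0600). Cacna1g was higher in the same genotype in every sample, at 215, 191 and 182 TPM against 159, 141 and 119.9 TPM (log2 fold change 0.49 ± 0.11 (SE), limma adjusted p = 0.0916). Cacna1e was lower in it in every sample, at 39.4, 27.9 and 34.7 TPM against 47.7, 51.8 and 46.5 TPM (log2 fold change -0.52 ± 0.12 (SE), limma adjusted p = 0.10004). The alpha2delta genes differed in opposite directions, Cacna2d1 at 22.1, 17.8 and 19.9 TPM against 26.7, 25.9 and 29.5 TPM (log2 fold change -0.44 ± 0.10 (SE), limma adjusted p = 0.0939) and Cacna2d2 at 131, 118 and 111 TPM against 105, 92.3 and 90.5 TPM (log2 fold change 0.32 ± 0.09 (SE), limma adjusted p = 0.116), with no overlap in either. In all, 5 genes lay above and 10 below without overlap, where 6.70% and 20.3% of all genes tested did so. The genotypes also differed in markers of other cells. Choroid plexus markers summed to 3960.2 to 5179 TPM in Brca2-WT;Trp53-mut and 19.2 to 876 TPM in Brca2-mut;Trp53-WT, and Purkinje cell markers to 6004 to 6421 TPM and 7881 to 9392 TPM. Their part in the channel values was not tested, and what was dissected and the genotype cannot be told apart.

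Most listed genes that act on these channels without belonging to them were also lower in the tumors. Of 32 listed partners 31 were tested in tumor against control, 19 fell and 2 rose, where 21.5% and 14.4% of all genes tested did so. Their median log2 fold change was -1.86, beside -0.11 over all genes tested. Of the FGF homologous factors, which bind the tails of sodium channel pores, 3 of 4 fell. Fgf12 was at 5.55 ± 1.36 TPM (SD, n = 3) in the tumors and 58.3 ± 5.57 TPM (SD, n = 6) in the controls (log2 fold change -3.20 ± 0.14 (SE), limma adjusted p = 2.73e-08), while Fgf13, at 13.5 ± 1.74 and 17.2 ± 1.40 TPM, was not called (log2 fold change -0.33 ± 0.11 (SE), limma adjusted p = 0.0182). Of the 8 anchors of the initial segment and node, 6 fell, among them Sptbn4, the spectrin under the initial segment (log2 fold change -3.12 ± 0.26 (SE), limma adjusted p = 1.77e-06). Ank3, which encodes ankyrin-G and ties sodium channels to that spectrin, missed the minimum fold change (log2 fold change -0.76 ± 0.18 (SE), limma adjusted p = 0.00324). Of 12 regulators of calcium channels 7 fell, among them Rims1, a scaffold that holds calcium channels at release sites (log2 fold change -4.03 ± 0.28 (SE), limma adjusted p = 4.24e-07), and 2 rose. Both of those, Gem (log2 fold change 1.52 ± 0.27 (SE), limma adjusted p = 0.000464) and Rrad (log2 fold change 1.05 ± 0.19 (SE), limma adjusted p = 0.000573), encode small GTPases known to restrain calcium channels. Their levels were low, 3.46 ± 1.85 and 9.11 ± 3.15 TPM (SD, n = 3) in the tumors against 0.493 ± 0.327 and 3.77 ± 0.628 TPM (SD, n = 6) in the controls. Rem1 and Rem2, listed regulators of the same GTPase family, did not rise. Rem2 was lower in every tumor than in every control, at 3.51 to 4.27 TPM against 8.42 to 12.5 TPM. The ranges of Rem1 overlapped. Of 3 tested regulators of sodium channels, Camk2b and Prrt2 fell (log2 fold changes -3.68 and -3.50). In the complex of the leak channel NALCN only the scaffold Unc80 was called (log2 fold change -3.35 ± 0.21 (SE), limma adjusted p = 2.38e-07), and the pore Nalcn itself was at 31.9 ± 1.54 TPM in the tumors and 42.9 ± 2.88 TPM in the controls (log2 fold change -0.41 ± 0.08 (SE), limma adjusted p = 0.00106). Against the adjacent cerebellum 15 of 30 tested partners fell and none rose, where 18.0% and 4.76% of all genes tested had such calls. No partner was called in adjacent against control or between the control genotypes, where 0.236% and 0.0578% of all genes tested were.

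RefSeq start windows were found for 30 of the 40 genes, 41 windows in all, and 250 bases before each start were searched on both strands for short motifs as a description. None of the motifs contains another. CAGCTG, an E-box of the kind that Atoh1 and related factors bind, was in 11 of the 41 windows and in 13.0% of all 32851 windows. The E-box CAGATG was in 5 of the 41 and in 14.4% of all. The core GACCACCCA, bound by the GLI factors that act in hedgehog signaling, was in 2, those of Cacnb4 and Scn4a, and in 0.225% of all. TATAAA was in 2, of Cacna1d and Scn2a, and in 12.4% of all. Of the partial sites of the neuronal repressor NRSF, also called REST, TTCAGCACC was in none and GGACAGC in 1, of Cacnb1, where 0.301% and 5.28% of all windows held them. None of these motifs was in the windows shown above for Scn2b, Scn4b, Cacna2d1 and Cacna2d2, which says only that these letters were not in those bases.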

How the data were processed

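RNA was sequenced from 3 medulloblastomas, cerebellum beside each of them and 6 tumor-free cerebella. Per the labels and the methods of the study, the authors made poly(A) libraries with a kit that does not mark strand, quantified transcripts with Salmon 0.8.1 against mm10 gene models, summed them to genes and deposited TPM. Only these TPM were used here, for 24091 genes. They carry no depth, so no counting interval is given, and the study's count model was not repeated.

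TPM were analysed as log2(TPM + 1) with limma 3.58.1 (trend) in R 4.3.3, leaving out genes that did not reach 1 TPM in 3 or more samples of a comparison. A call required a Benjamini-Hochberg adjusted p under 0.01 over all genes tested and a log2 fold change of 1 or more in either direction, the thresholds of the study. A fold change on this scale understates that of low genes. The comparisons were tumor with control, tumor with adjacent, adjacent with control and Brca2-mut;Trp53-WT with Brca2-WT;Trp53-mut, and they share samples. Replicates were separate mice. The pairing of tumor and adjacent samples comes from the mouse names in the labels. Deviations from the group mean had r = 0.228, 0.148 and 0.148 over genes within GB344, GB359 and GB370. Between different mice r was -0.141 to 0.015. Deviations from a mean of 3 mice by themselves lower r between different mice, so these values are a weak check of the pairing. Alternatives were the pseudocount, the filter, median-of-ratios and quantile scaling, limma without the trend, all groups in 1 fit, each control genotype alone, the mouse as a block and each sample left out. Channel genes, partner lists and marker lists (granule neuron, progenitor and cell cycle, Purkinje cell, molecular layer interneuron, oligodendrocyte, oligodendrocyte precursor, astrocyte and Bergmann glia, microglia, endothelial and mural, choroid plexus, skeletal muscle) were chosen with earlier results of these data known, and genes were named by their subunit class, the lead gene of each class and every called gene. Sequences and positions are from RefSeq, GRCm38.p6. All 40 genes matched a position. Values of some channel genes are not reported here, although the counts include them.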

Additional observations from a re-analysis of the deposited data

Results flagged for a closer look

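In 1 of the 31 tested channel genes 1 of the 6 control cerebella lay far from the others, where chance flags about 1 gene in 20. Scn2b was at 186 TPM in the Brca2-mut;Trp53-WT cerebellum of GB508 and at 212 to 219 TPM in the other 5, so that the gap was 0.777 of the whole range. All adjacent samples and tumors were below the lower value.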

How the results depend on the processing

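In tumor against control, the counts of channel genes called were 2 to 3 higher and 17 to 21 lower under the alternatives run, and no channel gene reversed under any of them. Cacnb3, Cacng8, Cacna1e and Cacng5 lost the call under at least 1, as given beside their values. Scn3a was called higher at a pseudocount of 0.1, with quantile scaling and without the tumor of GB344. In tumor against adjacent, the count called higher was 0 and became 2 with median-of-ratios scaling, 2 with quantile scaling and 1 with all 4 groups in 1 fit, and it ranged from 0 to 1 when 1 sample was left out, with Scn3b called without the adjacent sample of GB344. Cacng7 lost its call there under both scalings and Scn9a with quantiles, while Cacnb3, Cacna1e and Cacng5 gained one with all groups in 1 fit. Scaling moved the median of all genes, from -0.14 to 0.02 by median-of-ratios and to 0.14 by quantiles, and in tumor against control from -0.11 to -0.01 and 0.06. In adjacent against control, the counts ranged from 0 to 1 higher and from 0 to 1 lower when 1 sample was left out. The cause of these changes was not tested. With the mouse as a replicate block, 15 were lower and 0 higher in tumor against adjacent, and the pairing changed no other call. Depth is unknown, so the precision of the 9 genes under the filter could not be judged. With 3 mice a group, 1 sample could decide a call.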
